A study of Arabidopsis thaliana with 30 samples.

Results

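In Arabidopsis thaliana seedlings, 70 of 27655 counted genes were lower in the ethylene-insensitive mutant ein2-5 than in the wild type Col-0 in all 5 conditions of the study. Members were chosen from the measured values: each count was multiplied by 1e6 and divided by the library's total (CPM), averaged over the libraries of a group, and compared as g, the log2 of (ein2-5 mean + 1) over (Col-0 mean + 1). A gene was taken when g was -0.5 or less in each condition, so the lower level in ein2-5 is the choice itself and is described here without a test. The groups were ein2-5 and Col-0 seedlings 12 days old, grown on agar plates with Murashige and Skoog (MS) medium and sucrose. Antimycin A (AA), which blocks the mitochondrial electron transport chain at complex III, was given at 20 µM in liquid MS for 3 h or 24 h; other seedlings got liquid MS alone for the same times or were left untreated. Each of the 10 groups had 3 libraries of poly(A) RNA from whole seedlings. A single mutant allele was studied, so each genotype difference is that of ein2-5 plants from Col-0.

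Ethylene is a gas hormone that is bound by receptors of the endoplasmic reticulum. Without ethylene the receptors keep the kinase CTR1 active, and CTR1 holds EIN2 inactive; with ethylene, a part of EIN2 is released and lets the transcription factor EIN3 and its relative EIL1 accumulate. EIN3 is otherwise degraded through the F-box proteins EBF1 and EBF2. EIN3 activates genes of the pathway itself, among them EBF2 and some receptors, and genes of growth and defence. In seedlings ethylene is known for stimulating root hairs and for restraining elongation.

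Library totals ranged from 21.2 M to 32.6 M read pairs (median 24.3 M), and no pair of libraries matched within counting noise. Replicate 3 of ein2-5 with MS at 3 h stood apart from its group: its counts differed from those of its partners by a chi-square of up to 34.8 per degree of freedom, against 4.63 between replicates 1 and 2. Without it the rule took 83 genes, which included all 70. Replicate 1 of ein2-5 with MS at 24 h differed less from its partners, by 17.1 and 20.6 per degree of freedom. Between replicates 2 and 3 of that group the value was 8.94. Transcript of EIN2 itself stood at 36.4 to 49.4 CPM over the 15 ein2-5 libraries (median 45.05) and at 87.7 to 126 CPM over the 15 Col-0 libraries (median 109.8); the rule used these values, and gene counts do not show the ein2-5 lesion itself. The labels do not say whether replicates came from separate cultures, so each p-value here weighs a difference against the spread of these libraries alone, part of which may be technical. They name the sampling time as the batch, so AA and MS were compared within a time, while in MS against untreated the medium, the time and the batch cannot be told apart. Root hair and leaf photosynthesis markers were above 0 in every group, as the label of whole seedlings requires. Of 8 endodermis markers, 1 was at 0 in 1 group, Col-0 with AA at 24 h. AA raised all 10 genes of a list of known mitochondrial stress responders in Col-0 at both times. In ein2-5 it raised 10 at 3 h and 9 at 24 h. Over all genes AA raised 6.20% at 3 h and 6.48% at 24 h in Col-0, and 6.62% and 5.90% in ein2-5. The list was written with earlier results of these data known, so it is only a limited check of the treatment label.

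The g values of the 70 genes had a median of -1.06 in untreated seedlings, -1.18 and -1.09 at 3 h of AA and of MS, and -1.16 and -1.34 at 24 h of AA and of MS. Averaged over the conditions, g ran from -2.60 for EXT12 to -0.66, and 51 members had an average of -1 or less. At 24 h of MS 24 members had their lowest g, and in untreated seedlings 2 did. Nearest to the threshold inside it were DIN11 (g of -0.50 untreated), CYP707A2 (-0.51 untreated) and EXT6 (-0.51 with MS at 3 h). Nearest outside it, at -0.498, -0.497 and -0.492 in their highest condition, were RHS18, AT3G62950 and AT4G11521. In 24 members every one of the 15 ein2-5 libraries lay below every one of the 15 Col-0 libraries; over all 21256 genes that passed the count filter this share was 0.127%. All 70 members passed that filter. In the fit to all genes, 63 members passed as lower untreated (background 2.82%), 68 and 68 at 3 h of AA and MS (2.95% and 4.55%), and 66 and 69 at 24 h (4.41% and 4.65%), and 61 in all 5 conditions (0.461%), but these contrasts chose the members and nothing is read from the counts. The rule took both strong and faint genes, although the added 1 CPM shrinks g of rare transcripts and so leaves out some faint genes. The reverse set, with g of 0.5 or more in all conditions, held 96 genes.

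**Figure D1:**
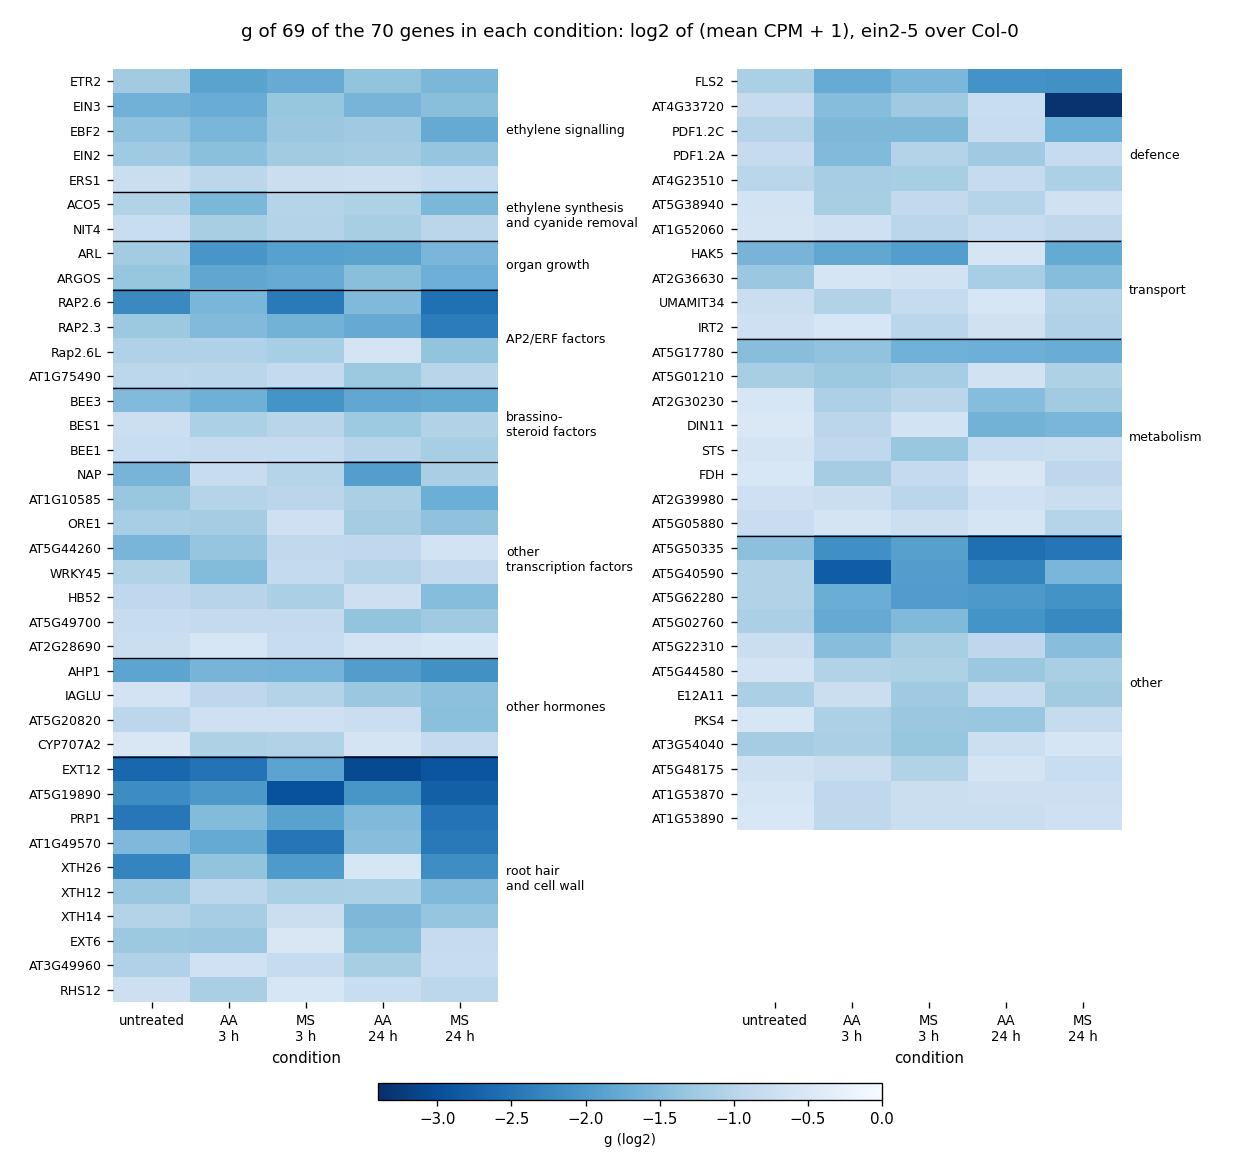
The colour gives g, the log2 of (mean CPM + 1) in ein2-5 over that in Col-0, for 69 of the 70 genes (rows, grouped by role) in the 5 conditions (columns). All cells are at -0.5 or less by the choice of the genes, and the darkest is AT4G33720 with MS at 24 h, at -3.35.

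Promoters of 4 members are shown because these genes stand for the groups described below: an EIN3 regulator, a receptor, an immune receptor and a root hair wall enzyme. EIN3 is known to bind the short core TACAT and the longer motif ATGNANCT. Both were searched on both strands, with overlapping matches counted, in the 300 bases before the annotated start of each gene (RefSeq annotation of TAIR10.1, while the submitters' notes name TAIR10). Capitals mark every match to either motif, each sequence reads 5′ to 3′ along the gene's strand, and its last base is the one before the gene's start. The window of EBF2 is chr5:8797350-8797649, minus strand; of ETR2 chr3:8254259-8254558, plus strand; of FLS2 chr5:18791275-18791574, plus strand; and of XTH12 chr5:23301690-23301989, minus strand.
EBF2: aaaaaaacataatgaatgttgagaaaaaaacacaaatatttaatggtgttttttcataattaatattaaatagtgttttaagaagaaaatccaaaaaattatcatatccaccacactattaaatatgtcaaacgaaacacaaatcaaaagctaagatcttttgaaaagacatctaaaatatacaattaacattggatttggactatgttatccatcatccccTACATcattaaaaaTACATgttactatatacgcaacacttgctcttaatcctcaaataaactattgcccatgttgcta
ETR2: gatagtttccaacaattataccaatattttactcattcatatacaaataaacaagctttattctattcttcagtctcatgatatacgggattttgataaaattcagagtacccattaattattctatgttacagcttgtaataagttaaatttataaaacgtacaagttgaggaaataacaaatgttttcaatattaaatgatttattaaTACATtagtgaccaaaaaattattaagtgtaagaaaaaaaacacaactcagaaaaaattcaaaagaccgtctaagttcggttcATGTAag
FLS2: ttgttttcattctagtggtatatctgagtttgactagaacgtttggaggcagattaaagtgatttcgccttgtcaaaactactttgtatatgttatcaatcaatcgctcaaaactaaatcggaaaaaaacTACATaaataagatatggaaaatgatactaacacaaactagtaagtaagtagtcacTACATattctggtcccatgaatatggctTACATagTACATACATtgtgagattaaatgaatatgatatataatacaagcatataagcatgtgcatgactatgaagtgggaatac
XTH12: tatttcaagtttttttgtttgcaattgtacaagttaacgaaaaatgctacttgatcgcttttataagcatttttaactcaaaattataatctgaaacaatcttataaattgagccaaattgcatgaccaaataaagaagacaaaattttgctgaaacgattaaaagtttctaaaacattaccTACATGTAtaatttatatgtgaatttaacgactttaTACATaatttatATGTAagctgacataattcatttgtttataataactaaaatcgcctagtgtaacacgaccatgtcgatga

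In EBF2 the 2 cores began 78 and 64 bases before the gene's start, FLS2 had 5 and XTH12 4. The mean was 1.36 cores per promoter over the members and 0.992 over all promoters. Each printed promoter thus held more cores than the members' average. Over the 70 members, TACAT was found in 51 promoters (72.9%), against 58.9% of 27443 promoters of all protein-coding genes counted, so a window of this length often holds it. The longer motif was found in 12 (17.1%) against 15.2%. GCCGCC, the box bound by many ERF proteins, was in 4 (5.71%) against 2.26%, and the G-box CACGTG in 9 (12.9%) against 7.09%. BEE3 and NIT4 held neither EIN3 motif in this window.

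The 5 members of the ethylene pathway were the receptors ERS1 and ETR2, EIN2, EIN3 and EBF2. ETR2 (AT3G23150), a receptor that restrains the response, had 6.16, 4.89 and 5.64 CPM in the ein2-5 libraries and 12.9, 14.7 and 15.4 CPM in the Col-0 libraries when untreated. With MS at 3 h it had 7.58, 9.04 and 7.696 CPM in the ein2-5 libraries and 28.5, 27.05 and 32.3 CPM in the Col-0 libraries. The genotypes did not overlap in any condition, and over all libraries ETR2 stayed within 3.98 to 9.04 CPM in ein2-5 and 12.9 to 32.3 CPM in Col-0. ERS1 (AT2G40940), another receptor, had 24.8, 26.8 and 27.99 CPM in the ein2-5 libraries and 50.95, 42.5 and 43.6 CPM in the Col-0 libraries when untreated, and its highest ein2-5 value, 43.1 CPM, came from the library that stood apart. EIN3 (AT3G20770) had 37.4, 37.1 and 33.6 CPM in the ein2-5 libraries and 119, 111 and 114 CPM in the Col-0 libraries when untreated, and 42.3, 35.2 and 39.3 CPM in the ein2-5 libraries and 126, 123 and 142 CPM in the Col-0 libraries with AA at 3 h. Every Col-0 library of EIN3 lay above every ein2-5 library. EBF2 (AT5G25350) had 30.7, 21.4 and 27.5 CPM in the ein2-5 libraries and 65.00, 70.4 and 77.9 CPM in the Col-0 libraries when untreated, and 43.9, 32.00 and 31.8 CPM in the ein2-5 libraries and 107, 119 and 99.4 CPM in the Col-0 libraries with AA at 3 h, the condition with its highest mean in both genotypes. The fitted log2 difference of EBF2 ran from -1.82 ± 0.15 with MS at 24 h to -1.30 ± 0.14 with AA at 24 h. Counting ignored strand, and ERS1 and EBF2 each overlap another annotated gene, so their values may include its reads.

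**Figure D2:**
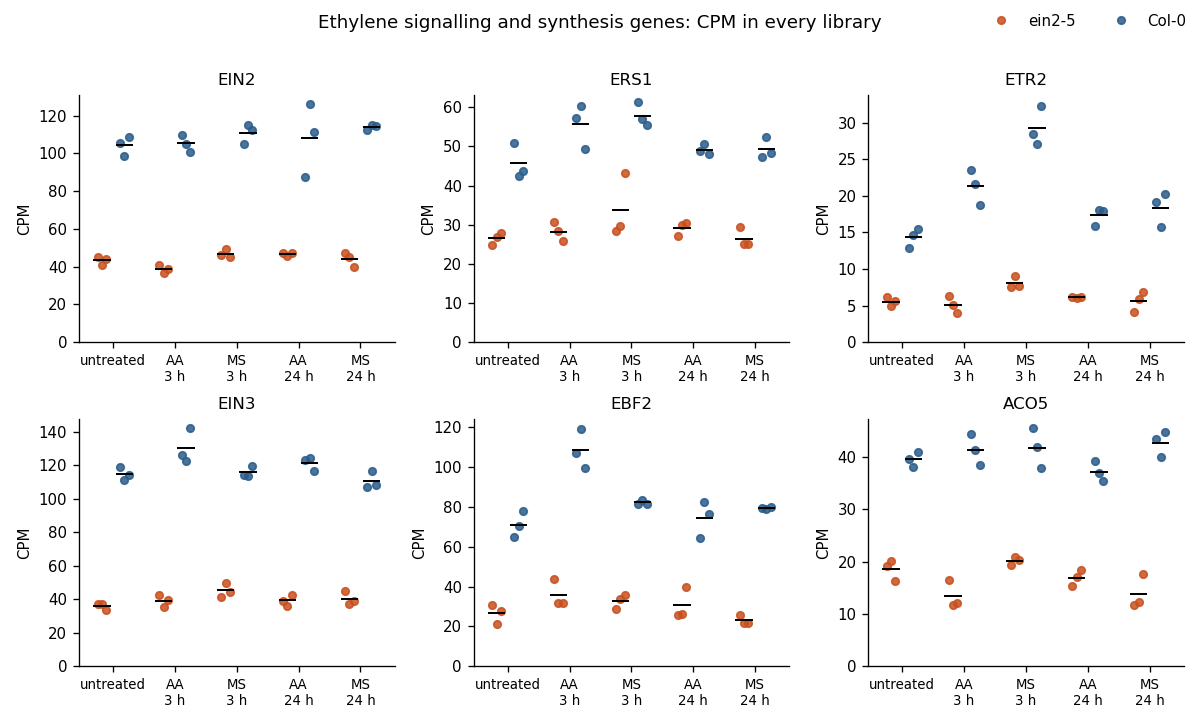
CPM (y axis, from 0) of 6 members in each library (points, ein2-5 left of Col-0 in each condition) with the mean of the 3 libraries (black lines). In all 6 genes and all 5 conditions the ein2-5 points lie below the Col-0 points; EIN2 spans 36.4 to 49.4 CPM in ein2-5 and 87.7 to 126 CPM in Col-0.

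The other 14 genes of a list of ethylene perception and signalling did not meet the rule. That they differ from these 5 thus follows from the choice, and their values are given as a description. Of them 2 passed as higher in ein2-5 in every condition, and 1 untreated, 3 and 3 with AA and MS at 3 h, and 2 and 2 with AA and MS at 24 h passed as lower; the share of all genes called higher was 1.51% untreated, 4.86% and 5.87% at 3 h of AA and MS, and 5.50% and 6.74% at 24 h. Higher were EIL1 (AT2G27050), the relative of EIN3, with 428 ± 66.4 CPM in ein2-5 and 73.96 ± 2.78 CPM in Col-0 when untreated (2.49 ± 0.15, adjusted p = 6.95e-13), and EBF1 (AT2G25490), the partner of EBF2, with 147 ± 0.609 CPM in ein2-5 and 104 ± 2.29 CPM in Col-0 (0.47 ± 0.07, adjusted p = 0.000106). Within both pairs of related genes the 2 copies stood on opposite sides, EIN3 and EBF2 lower and EIL1 and EBF1 higher in ein2-5. Lower in all 5 conditions among the non-members was the receptor ERS2 (-1.42 ± 0.15, adjusted p = 1.71e-07 with AA at 3 h; -0.58 ± 0.15, adjusted p = 0.0213 untreated). ETR1, the receptor first found, had log2 differences between -0.16 and -0.01, none called.

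Members with roles in ethylene synthesis included ACO5, an ACC oxidase of its last step, and NIT4, a nitrilase that helps remove the cyanide which that step releases. ACO5 (AT1G77330) had 19.2, 20.1 and 16.3 CPM in the ein2-5 libraries and 39.7, 38.2 and 41.01 CPM in the Col-0 libraries when untreated, and 11.7, 12.2 and 17.6 CPM in the ein2-5 libraries and 43.5, 40.05 and 44.8 CPM in the Col-0 libraries with MS at 24 h. For ACO5 the medians over 15 libraries were 17.03 CPM in ein2-5 and 40.05 CPM in Col-0, and for NIT4 (AT5G22300) they were 15.1 and 31.8 CPM; no library of either gene crossed over. None of the 11 synthesis genes of a list that are not members and passed the filter was called lower in ein2-5 untreated or at 24 h, and with MS at 3 h 1 was, ACO4 (-0.26 ± 0.07, adjusted p = 0.0168). Listed genes that met the rule are members, so few lower calls among the other 11 follow in part from the choice. Of these 11, 2 and 3 were called higher with AA and MS at 3 h (4.86% and 5.87% of all genes). At 24 h 3 and 4 were called higher with AA and MS (5.50% and 6.74% of all genes). ACS7, an ACC synthase, had 38.8 ± 5.15 CPM in ein2-5 and 10.7 ± 1.26 CPM in Col-0 with AA at 3 h (1.86 ± 0.33, adjusted p = 0.000263). The organ size genes ARGOS (AT3G59900) and ARL (AT2G44080) were members as well; ARGOS proteins are known to lower ethylene sensitivity when made in excess. ARGOS had 0.517, 0.334 and 0.794 CPM in the ein2-5 libraries and 2.51, 3.41 and 2.79 CPM in the Col-0 libraries when untreated, and 1.104, 0.933 and 0.597 CPM in the ein2-5 libraries and 5.61, 5.66 and 5.597 CPM in the Col-0 libraries with AA at 3 h. ARL had 8.31, 5.31 and 5.49 CPM in the ein2-5 libraries and 27.5, 29.1 and 32.2 CPM in the Col-0 libraries with AA at 3 h. In both genes all 15 ein2-5 libraries lay under all 15 Col-0 libraries.

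Transcription factors formed the next group: 4 of the AP2/ERF family, 3 tied to brassinosteroids and 8 others annotated as DNA-binding proteins. RAP2.3 (AT3G16770), an ERF whose stability depends on oxygen, had 23.5, 25.2 and 36.4 CPM in the ein2-5 libraries and 154, 144 and 165 CPM in the Col-0 libraries with MS at 24 h. RAP2.6 (AT1G43160), an ERF induced by stress hormones, was nearly silent in the mutant: 0.172, 0.502 and 0.543 CPM in the ein2-5 libraries and 5.77, 5.695 and 5.24 CPM in the Col-0 libraries when untreated. Its ein2-5 levels stayed at 0 to 1.17 CPM, and Col-0 levels at 1.93 to 8.52 CPM. BEE3 (AT1G73830), a helix-loop-helix factor induced by brassinosteroids, had 8.18, 7.07 and 6.64 CPM in the ein2-5 libraries and 22.9, 22.7 and 22.1 CPM in the Col-0 libraries when untreated, and 2.43, 2.55 and 2.87 CPM in the ein2-5 libraries and 14.2, 14.8 and 14.2 CPM in the Col-0 libraries with MS at 3 h. Its relative BEE1 had medians of 2.67 CPM in ein2-5 and 6.72 CPM in Col-0, and BES1, a main factor of brassinosteroid signalling, 56.9 and 112 CPM. Of the senescence factors, NAP (AT1G69490) had 7.75, 7.400 and 8.899 CPM in the ein2-5 libraries and 29.00, 25.1 and 25.1 CPM in the Col-0 libraries when untreated, and ORE1 (AT5G39610) had 2.24, 1.17 and 3.68 CPM in the ein2-5 libraries and 6.83, 6.43 and 6.53 CPM in the Col-0 libraries. Both are NAC proteins that promote leaf senescence, and ORE1 is known as a target of EIN3. Of 6 other senescence genes tested, 2 untreated, 0 and 0 with AA and MS at 3 h, and 1 and 2 with AA and MS at 24 h were called lower in ein2-5, and none higher, at the genotype backgrounds given above. Among 15 tested non-members of a list of ethylene transcription factors and growth targets, 4 untreated, 4 and 4 at 3 h of AA and MS, and 7 and 4 at 24 h were called lower, and up to 2 higher. Over all genes 2.82% to 4.65% were called lower and 1.51% to 6.74% higher. Listed genes that met the rule are members, so these counts do not describe the whole list.

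Genes of root hairs and cell walls included the members with the lowest g. Root hairs are outgrowths of root epidermal cells whose walls carry extensins and proline-rich proteins and are loosened by xyloglucan endotransglucosylases (XTH). EXT12 (AT4G13390), an extensin, had 8.83, 6.65 and 6.98 CPM in the ein2-5 libraries and 60.4, 55.8 and 43.8 CPM in the Col-0 libraries when untreated. PRP1 (AT1G54970), a proline-rich wall protein of root hairs, had 3.23, 2.42 and 2.17 CPM in the ein2-5 libraries and 21.7, 20.5 and 14.7 CPM in the Col-0 libraries. XTH26 (AT4G28850) had 0.0861, 0.125 and 0.251 CPM in the ein2-5 libraries and 3.75, 5.97 and 4.29 CPM in the Col-0 libraries. In none of these did a mutant library reach the lowest wild-type library of the same condition. The peroxidases AT5G19890 and AT1G49570 were close to silent in ein2-5, with medians of 0.0837 and 0.609 CPM, against 4.43 and 5.33 CPM in Col-0. EXT6 (AT2G24980) did overlap with MS at 3 h, with 30.02, 28.7 and 60.9 CPM in the ein2-5 libraries and 62.6, 60.6 and 48.6 CPM in the Col-0 libraries; 96.7% of its values were not whole, which marks read pairs shared with similar extensins, so its level is uncertain.

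In whole seedlings, fewer root hair cells and less RNA per cell cannot be told apart. A list of 10 root hair markers, of which PRP1 alone is a member, gave summed levels that were lower in ein2-5 except with MS at 3 h. Such a sum can rest on a few abundant genes. The 9 other markers summed to 85.7 to 92.9 CPM in ein2-5 and 113.6 to 148.0 CPM in Col-0 when untreated, and to 64.6 to 87.6 CPM and 114.0 to 120.8 CPM with MS at 24 h. With AA the sums were 34.7 to 47.7 CPM in ein2-5 and 55.2 to 59.5 CPM in Col-0 at 3 h, and 39.4 to 45.4 CPM and 66.4 to 73.1 CPM at 24 h; with MS at 3 h, 95.9 to 127.0 CPM in ein2-5 and 108.7 to 128.3 CPM in Col-0 overlapped. None of the 10 was at 0 in a group. Singly, 2 untreated, 2 and 1 at 3 h of AA and MS, and 3 and 2 at 24 h of the 9 were called lower in ein2-5, such as PRP3, another proline-rich wall protein (-0.99 ± 0.14, adjusted p = 2.92e-05 untreated). Over all genes the share called lower was 2.82% untreated, 2.95% and 4.55% at 3 h of AA and MS, and 4.41% and 4.65% at 24 h. RHD6, RSL4 and RBOHC, which act in hair initiation and growth, were called in no condition. Their part in the lower level of the wall genes was not tested.

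Defence members were 7, with the flagellin receptor kinase FLS2 and the defensins PDF1.2A and PDF1.2C at their head. FLS2 (AT5G46330) had 1.56, 2.15 and 1.55 CPM in the ein2-5 libraries and 10.9, 11.9 and 10.3 CPM in the Col-0 libraries with MS at 24 h. PDF1.2A (AT5G44420), a standard marker of joint ethylene and jasmonate action, varied more: 2.71, 2.97 and 1.003 CPM in the ein2-5 libraries and 6.698, 2.94 and 4.601 CPM in the Col-0 libraries when untreated, and the genotypes overlapped there and with MS at 3 h and 24 h. With AA at 24 h it had 5.54, 5.41 and 6.53 CPM in the ein2-5 libraries and 16.4, 11.7 and 17.7 CPM in the Col-0 libraries, without overlap. Its neighbour PDF1.2C, 1211 bases away on chromosome 5, had 0.0412, 0.2705 and 0.174 CPM in the ein2-5 libraries and 3.74, 1.15 and 2.29 CPM in the Col-0 libraries with MS at 3 h. Its genotypes overlapped with AA at 3 h, where it had 0.414, 0.284 and 0.278 CPM in the ein2-5 libraries and 2.44, 6.07 and 0.155 CPM in the Col-0 libraries. Of 5 other tested defence outputs of ethylene and jasmonate, 1 was called lower, PDF1.2B with MS at 3 h (-2.02 ± 0.48, adjusted p = 0.00546), and CHI-B and HEL, standard ethylene markers, were called in no condition. These 5 are the listed genes that the choice left, and 4.55% of all genes were called lower with MS at 3 h. AT4G33720, a protein of the PR-1 family, was at 0 to 0.603 CPM in ein2-5, with 5 of 15 libraries at 0, while in Col-0 it had 10.2, 12.8 and 7.82 CPM with MS at 24 h and 0.308, 1.05 and 2.3003 CPM untreated.

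Members with other hormone roles were AHP1, a phosphotransfer protein of cytokinin signalling, CYP707A2, which degrades abscisic acid, IAGLU, which joins glucose to auxin, and the SAUR-like gene AT5G20820. AHP1 (AT3G21510) had 7.45, 7.53 and 6.68 CPM in the ein2-5 libraries and 26.7, 30.95 and 27.8 CPM in the Col-0 libraries when untreated, and medians over all libraries of 6.68 and 27.8 CPM. The 8 auxin synthesis and response genes of another list held no member, and between 0 and 2 of them were called in a direction per condition. Over all genes 2.82% to 4.65% were called lower and 1.51% to 6.74% higher. Transport members included HAK5 (AT4G13420), a high-affinity potassium transporter, with 2.41, 3.303 and 1.84 CPM in the ein2-5 libraries and 9.19, 10.9 and 8.803 CPM in the Col-0 libraries when untreated. FDH (AT5G14780), the formate dehydrogenase of mitochondria, had 64.2, 93.6 and 87.9 CPM in the ein2-5 libraries and 114, 115 and 126 CPM in the Col-0 libraries when untreated, without overlap. Among the members without a well-known role, AT5G62280, AT5G02760 (a PP2C phosphatase), AT5G40590 and AT5G50335 were among the 12 with the lowest g: AT5G40590 had 4.38, 3.16 and 2.35 CPM in the ein2-5 libraries and 23.3, 26.04 and 37.7 CPM in the Col-0 libraries with AA at 3 h.

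Further members are given by their range over the 15 libraries of a genotype. AT5G44580, a protein of unknown function, had 33.2 to 66.3 CPM in ein2-5 (median 44.2) and 62.7 to 153 CPM in Col-0 (median 90.6). AT5G38940, a cupin grouped with the defence genes, had 7.76 to 17.6 CPM in ein2-5 (median 11.6) and 17.3 to 30.6 CPM in Col-0 (median 20.98). AT2G39980, annotated as an acyltransferase, had 3.54 to 13.2 CPM in ein2-5 (median 8.33) and 9.31 to 21.3 CPM in Col-0 (median 14.7). In these 3 genes no ein2-5 library reached a Col-0 library of its own condition. AT5G17780, annotated as a hydrolase, kept the genotypes apart over all conditions, with 0.6896 to 1.77 CPM in ein2-5 (median 1.13) and 4.32 to 7.78 CPM in Col-0 (median 5.31). Rap2.6L, a relative of RAP2.6, had 1.08 to 4.98 CPM in ein2-5 (median 2.03) and 4.37 to 7.38 CPM in Col-0 (median 6.06), and AT1G75490, another AP2/ERF factor, had 0 to 1.29 CPM in ein2-5 (median 0.337) and 0.969 to 3.51 CPM in Col-0 (median 1.81). Their genotypes did not overlap within a condition. IRT2, an iron transporter of roots, had 0.242 to 3.39 CPM in ein2-5 (median 0.907) and 1.05 to 5.46 CPM in Col-0 (median 3.04), and UMAMIT34, of a family of amino acid transporters, had 0 to 0.913 CPM in ein2-5 (median 0.474) and 0.848 to 2.67 CPM in Col-0 (median 1.44). HB52, a homeobox factor, was near 0 in the mutant, with 0 to 0.544 CPM in ein2-5 (median 0.129) and 0.6598 to 3.31 CPM in Col-0 (median 1.41). STS, annotated as a stachyose synthase, had 0 to 0.483 CPM in ein2-5 (median 0.255) and 0.337 to 2.52 CPM in Col-0 (median 1.23). At such levels a library holds few read pairs of the gene, and g is kept small by the added 1 CPM. AT1G10585, a helix-loop-helix factor, had 0.129 to 1.24 CPM in ein2-5 (median 0.913) and 0.726 to 7.36 CPM in Col-0 (median 3.02) and overlapped with MS at 3 h, and AT2G30230 had 1.504 to 3.28 CPM in ein2-5 (median 2.35) and 2.58 to 8.36 CPM in Col-0 (median 6.35) and overlapped when untreated.

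Antimycin A against MS is a comparison that the choice of genes did not use, although it rests on the same libraries. The members and all genes tested were not matched for expression level. In ein2-5, AA raised 10 and lowered 15 of the 70 genes at 3 h, and raised 5 and lowered 16 at 24 h. In Col-0, AA raised 6 and lowered 13 at 3 h, and raised 5 and lowered 23 at 24 h. These calls come from edgeR's quasi-likelihood test with Benjamini-Hochberg adjustment at 0.05 over all 21256 genes. Over all of those genes the share lowered by AA was 6.22% at 3 h and 7.95% at 24 h in ein2-5, and 3.80% at 3 h and 6.50% at 24 h in Col-0, below the members' 21.4% and 22.9% in ein2-5 and 18.6% and 32.9% in Col-0; the shares raised over all genes were 6.62%, 5.90%, 6.20% and 6.48% in the same order. The median log2 change of the members was 0.04 at 3 h and -0.13 at 24 h in ein2-5, and -0.06 at 3 h and -0.32 at 24 h in Col-0, with medians over all genes between -0.01 and 0.00. Over the 4 comparisons 30 members fell in at least 1, 10 fell in all 4, 16 rose in at least 1 and none rose in all 4. Over all genes tested 16.0% fell in at least 1 and 0.701% in all 4, and 15.1% rose in at least 1 and 0.903% in all 4. Without the ein2-5 library that stood apart, the count at 3 h in ein2-5 was 9 raised and 12 lowered.

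**Figure D3:**
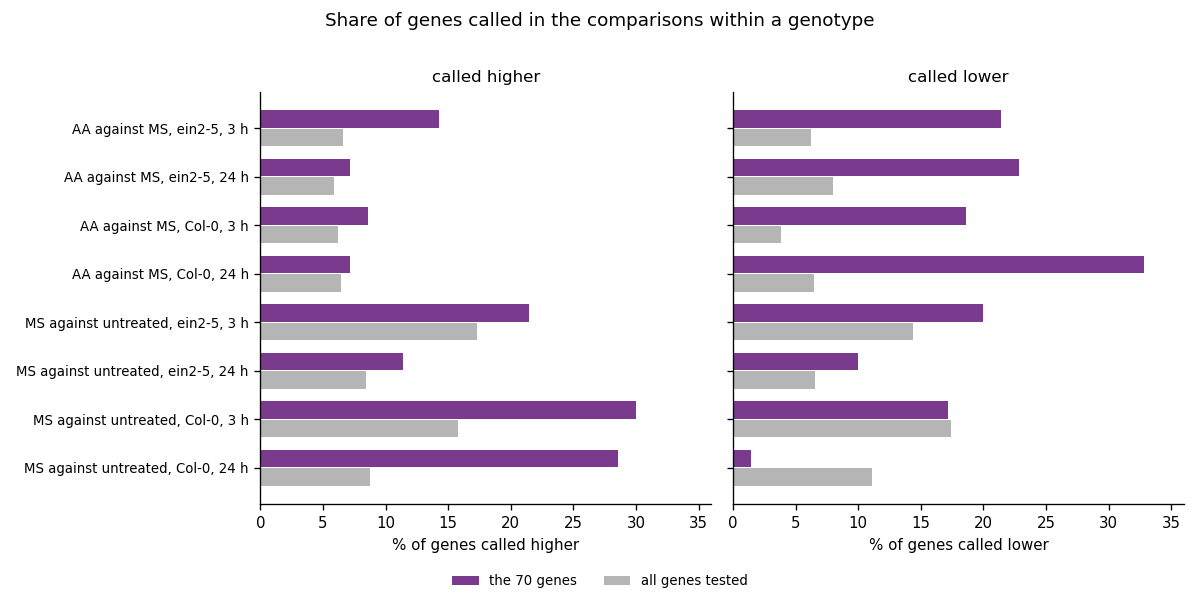
Percent of the 70 genes and of all 21256 genes tested (x axis) called higher (left) or lower (right) in each of the 8 comparisons within a genotype (rows). With AA at 24 h, 16 of the 70 genes were lowered in ein2-5 and 23 in Col-0; with MS at 24 h in Col-0, 20 were raised and 1 lowered.

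Of the 10 root hair and wall genes, 7 fell with AA in all 4 comparisons, in the mutant and in the wild type alike: PRP1, XTH12, XTH26, EXT6, EXT12, RHS12 and the peroxidase AT3G49960, where the share over all genes was 0.701%. Genes that stood low in ein2-5 thus had lower levels still with AA. In ein2-5 at 3 h PRP1 had 1.104, 0.365 and 0.159 CPM with AA, against 2.68, 3.56 and 4.04 CPM with MS. In Col-0 at 3 h it had 2.99, 3.43 and 3.61 CPM with AA, against 18.6, 15.04 and 12.4 CPM with MS. No AA library reached an MS library of its genotype. The log2 change with AA was -2.54 ± 0.34, adjusted p = 1.42e-06 at 3 h and -3.25 ± 0.44, adjusted p = 3.91e-06 at 24 h in ein2-5, and -2.22 ± 0.25, adjusted p = 5.46e-08 at 3 h and -2.78 ± 0.26, adjusted p = 2.6e-09 at 24 h in Col-0. XTH12 (AT5G57530), whose promoter is printed above, fell by a like amount on the log2 scale. In ein2-5 at 24 h it had 0.592, 0.172 and 0.379 CPM with AA, against 2.504, 1.68 and 3.096 CPM with MS. In Col-0 at 24 h it had 2.17, 1.65 and 2.21 CPM with AA, against 9.08, 9.88 and 7.53 CPM with MS. The log2 change with AA was -2.32 ± 0.31, adjusted p = 1.81e-06 at 3 h and -2.72 ± 0.36, adjusted p = 2.63e-06 at 24 h in ein2-5, and -2.01 ± 0.26, adjusted p = 7.81e-07 at 3 h and -2.22 ± 0.26, adjusted p = 3.29e-07 at 24 h in Col-0. AT3G49960, a peroxidase of roots, had log2 changes between -2.20 and -0.99, RHS12 (AT3G10710), a pectin methylesterase of root hairs, between -1.94 and -1.01, and EXT6, with its uncertain counts, between -2.06 and -1.30. EXT12 fell too (-1.95 ± 0.27 in ein2-5 and -1.33 ± 0.18 in Col-0 at 24 h), but its call in Col-0 at 3 h was lost without any 1 of replicates 1 and 2 of the AA and MS groups (adjusted p up to 0.15), and that of XTH26 in ein2-5 at 3 h without ein2-5 AA 3 h replicates 2 or 3, ein2-5 MS 3 h replicate 1 (adjusted p up to 0.0788). XTH14 (AT4G25820) fell in 3 of the 4, with -0.29 ± 0.14 in Col-0 at 3 h as the exception, and AT1G49570 fell in Col-0 at 24 h (-1.04 ± 0.26, adjusted p = 0.00628). In ein2-5 at 3 h AT1G49570 was instead called higher with AA (1.51 ± 0.44, adjusted p = 0.0181), a call lost in 4 of 11 alternatives, among them without ein2-5 AA 3 h replicate 2, ein2-5 MS 3 h replicates 1 or 2 (adjusted p up to 0.181). Of the 9 root hair markers that are not members, 7 were lowered by AA at 3 h and 5 at 24 h, in ein2-5 as in Col-0. Over all genes AA lowered 6.22% at 3 h and 7.95% at 24 h in ein2-5, and 3.80% and 6.50% in Col-0. With MS against untreated none of the 9 was called. There 8.44% to 17.3% of all genes were raised and 6.57% to 17.4% lowered, and nothing is read from this. The median log2 change of these 9 markers with AA was -1.28 at 3 h and -1.05 at 24 h in ein2-5, and -1.18 at 3 h and -0.90 at 24 h in Col-0, and whether they account for the fall of the wall genes was not tested. Of 8 endodermis markers, 4 in ein2-5 and 5 in Col-0 were lowered by AA at 24 h (7.95% and 6.50% of all genes).

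**Figure D4:**
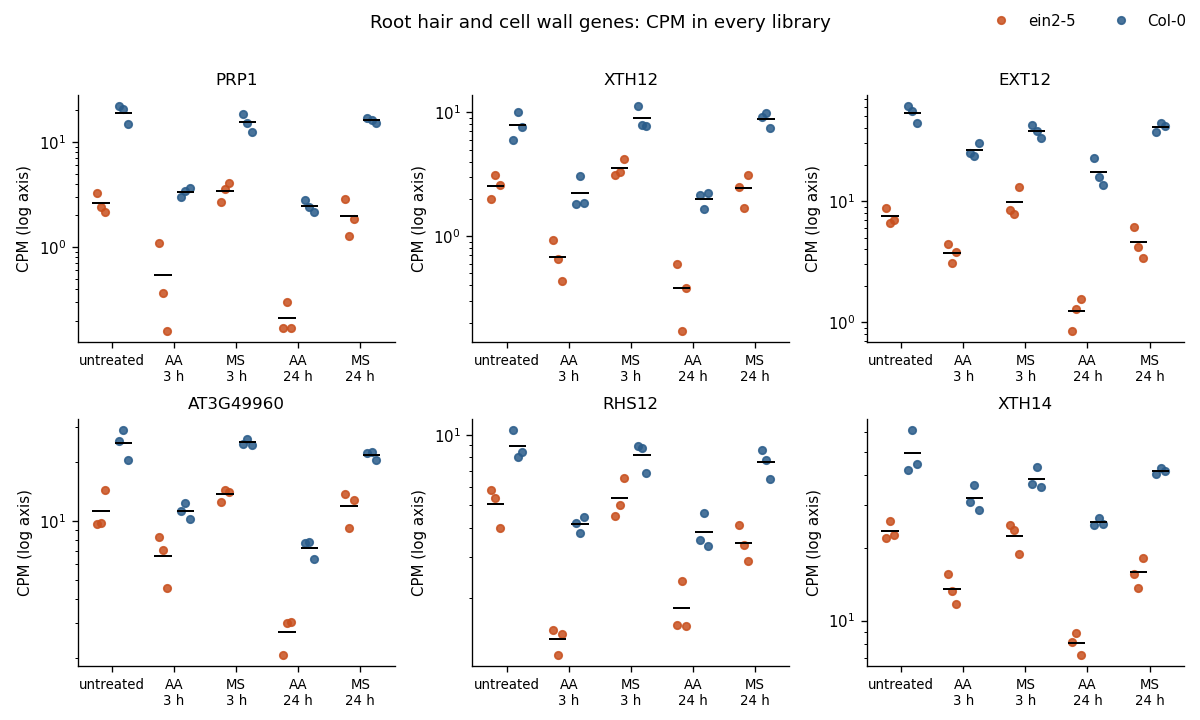
CPM (log axis) of 6 root hair and wall genes in each library (points, ein2-5 left of Col-0 in each condition). In both genotypes the AA points of PRP1 and XTH12 lie under the MS points of the same time, and in every condition the ein2-5 points lie under the Col-0 points.

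Of the 5 ethylene pathway genes, 1 was called with AA. Over all genes 16.0% fell and 15.1% rose in at least 1 of the 4 comparisons, so nothing is read from this count. EIN2, EIN3, ERS1 and EBF2 were called in none of the 4 comparisons, with log2 changes between -0.23 and 0.37. ETR2 was lowered by AA at 3 h in ein2-5 (-0.61 ± 0.17) and in Col-0 (-0.49 ± 0.15), but the first call was lost without AA replicate 3 or MS replicate 2 of ein2-5 (adjusted p up to 0.113) and the second without AA replicate 2 or 3 or MS replicate 3 of Col-0 (up to 0.169). Members outside the pathway and the wall changed one by one. WRKY45 (AT3G01970), a transcription factor of the WRKY family, was raised at 3 h: in ein2-5 at 3 h it had 4.62, 5.48 and 3.38 CPM with AA, against 1.28, 1.93 and 1.61 CPM with MS. In Col-0 at 3 h it had 15.7, 11.6 and 15.9 CPM with AA, against 3.699, 2.78 and 4.86 CPM with MS. The log2 change was 1.53 ± 0.28, adjusted p = 0.000199 in ein2-5 and 1.90 ± 0.25, adjusted p = 9.97e-07 in Col-0, and the range of ein2-5 with AA overlapped that of Col-0 with MS. AT3G54040, annotated as a PAR1 protein, was raised at 24 h in ein2-5 (0.88 ± 0.10, adjusted p = 1.38e-07) and in Col-0 (1.03 ± 0.10, adjusted p = 4.11e-09). AHP1 was lowered at 3 h in ein2-5 (-0.73 ± 0.15, adjusted p = 0.000952; 0.0628 when fitted on only the libraries compared) and in Col-0 (-0.77 ± 0.13, adjusted p = 0.000111). At 24 h its change was -0.36 ± 0.16 in ein2-5, not called, and -0.53 ± 0.13 in Col-0 (adjusted p = 0.00698). DIN11 (AT3G49620), a dioxygenase known to be induced by darkness, was lowered at 24 h in ein2-5 (-2.22 ± 0.45, adjusted p = 0.000913) and in Col-0 (-1.79 ± 0.37, adjusted p = 0.000987). NAP was raised at 3 h in ein2-5 (1.096 ± 0.24, adjusted p = 0.0017; 0.0507 when fitted on only the libraries compared). Its change in Col-0 at 3 h was 0.52 ± 0.20 (adjusted p = 0.0979). It was lowered at 24 h in ein2-5 (-1.48 ± 0.20, adjusted p = 2.38e-06). In Col-0 at 24 h its change was -0.49 ± 0.17 (adjusted p = 0.053). A difference between the genotypes was not called at either time. The other members that fell in all 4 comparisons were AT1G52060, a jacalin lectin, AT4G23510, an immune receptor of the TIR class, and AT2G36630, a sulfite exporter-like protein, each with 1 call in ein2-5 that did not hold. The call of AT1G52060 at 3 h was lost in 10 of 11 alternatives (adjusted p up to 0.204), among them without ein2-5 AA 3 h replicates 2 or 3, ein2-5 MS 3 h replicates 1, 2 or 3; that of AT4G23510 at 24 h without ein2-5 AA 24 h replicates 1 or 2, ein2-5 MS 24 h replicate 2 (up to 0.162); and that of AT2G36630 at 3 h without ein2-5 AA 3 h replicates 2 or 3, ein2-5 MS 3 h replicates 2 or 3 (up to 0.282).

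Liquid MS against untreated seedlings is also a comparison that the choice did not use, with time and batch inseparable from the medium. It rests on the same libraries as the choice, and the members and all genes tested were not matched for expression level. In ein2-5, 15 members rose and 14 fell at 3 h and 8 rose and 7 fell at 24 h; in Col-0, 21 rose and 12 fell at 3 h and 20 rose and 1 fell at 24 h. Over all genes MS raised 17.3% and lowered 14.4% at 3 h and raised 8.44% and lowered 6.57% at 24 h in ein2-5, and raised 15.8% and lowered 17.4% at 3 h and raised 8.78% and lowered 11.1% at 24 h in Col-0. Of the members, 21.4% were raised and 20% lowered at 3 h and 11.4% raised and 10% lowered at 24 h in ein2-5. Of these ein2-5 calls, 18 of 29 at 3 h and 5 of 15 at 24 h held under every alternative. The shares in ein2-5 were close to the background, and nothing is read from them. In Col-0 the members raised were above it at 3 h (30%) and at 24 h (28.6%). Those lowered in Col-0 were near it at 3 h (17.1%) and the 1 lowered at 24 h (1.43%) was below it. The gene lowered at 24 h was AT5G44260, a CCCH zinc finger protein (-1.12 ± 0.19, adjusted p = 4.29e-05), which was also lowered at 3 h in Col-0 (-0.73 ± 0.18, adjusted p = 0.00218). CYP707A2, DIN11 and AT5G01210, an acyltransferase-like protein, were among the 4 members raised in all 4 comparisons, as were 2.79% of all genes. In at least 1 of the 4 comparisons 31 members rose and 19 fell (26.1% and 24.7% of all genes), and none fell in all 4 (3.04%). The call of DIN11 in ein2-5 was lost at 3 h without ein2-5 MS 3 h replicate 3, ein2-5 untreated replicates 1 or 3 (adjusted p up to 0.144) and at 24 h without ein2-5 MS 24 h replicate 3, ein2-5 untreated replicates 1 or 3 (up to 0.147); that of AT5G01210 at 24 h was lost in ein2-5 without ein2-5 MS 24 h replicate 3 (up to 0.0598) and in Col-0 without Col-0 MS 24 h replicates 1, 2 or 3, Col-0 untreated replicates 1 or 2 (up to 0.103). Without the ein2-5 library that stood apart, 11 rose and 11 fell at 3 h in ein2-5; without replicate 1 of untreated ein2-5, 9 members were called at 24 h.

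Several members changed in the same direction in both genotypes at 3 h of MS. CYP707A2 (AT2G29090), an abscisic acid hydroxylase, rose. In ein2-5 it had 6.22, 4.95 and 6.57 CPM with MS at 3 h, against 1.03, 0.502 and 0.836 CPM untreated. In Col-0 it had 15.4, 11.7 and 13.4 CPM with MS at 3 h, against 1.76, 1.82 and 1.04 CPM untreated. Its log2 change was 2.87 ± 0.24, adjusted p = 3.76e-11 in ein2-5 and 3.15 ± 0.21, adjusted p = 1.66e-13 in Col-0, and it was still raised at 24 h (2.34 ± 0.24, adjusted p = 3.04e-08 in ein2-5 and 2.41 ± 0.21, adjusted p = 4.03e-10 in Col-0). FLS2 in ein2-5 had 7.995, 7.73 and 13.7 CPM with MS at 3 h, against 1.38, 2.17 and 1.295 CPM untreated. In Col-0 it had 31.2, 29.8 and 31.4 CPM with MS at 3 h, against 6.17, 3.22 and 4.85 CPM untreated. FLS2 changed by 2.56 ± 0.24, adjusted p = 4.88e-10 in ein2-5 and 2.71 ± 0.20, adjusted p = 2.46e-12 in Col-0, and the genotypes did not overlap before or after. At 24 h its change was 0.16 ± 0.29 in ein2-5, not called, and 1.24 ± 0.20, adjusted p = 3.11e-05 in Col-0, and the difference between the genotypes was not called. NAP in ein2-5 had 0.824, 1.51 and 1.39 CPM with MS at 3 h, against 7.75, 7.400 and 8.899 CPM untreated. In Col-0 it had 3.53, 3.16 and 4.05 CPM with MS at 3 h, against 29.00, 25.1 and 25.1 CPM untreated. NAP fell, with a log2 change of -2.71 ± 0.22, adjusted p = 2.78e-11 in ein2-5 and -2.87 ± 0.19, adjusted p = 1.36e-13 in Col-0. AT5G49700, an AT-hook protein, fell as well (-1.74 ± 0.27, adjusted p = 6.47e-06 in ein2-5 and -1.45 ± 0.24, adjusted p = 1.63e-05 in Col-0). The receptors ETR2 (1.03 ± 0.15, adjusted p = 1.65e-06) and ERS1 (0.35 ± 0.10, adjusted p = 0.00953) rose in Col-0 at 3 h; in ein2-5 their changes were 0.52 ± 0.17 and 0.32 ± 0.11, and both calls were lost on leaving out single ein2-5 libraries, for ETR2 MS replicate 2 or untreated replicate 2 (adjusted p up to 0.0787) and for ERS1 MS replicate 3 or untreated replicate 1 (up to 0.328). At 24 h PDF1.2A was raised in both genotypes (2.15 ± 0.44, adjusted p = 0.000813 in ein2-5 and 1.96 ± 0.40, adjusted p = 0.000559 in Col-0). PKS4 (AT5G04190), known from the bending of seedlings to light, fell at 3 h in ein2-5 (-1.47 ± 0.20, adjusted p = 6.06e-07) and in Col-0 (-0.52 ± 0.18, adjusted p = 0.0237), where the call was lost without Col-0 MS 3 h replicate 1, Col-0 untreated replicates 2 or 3 (up to 0.19).

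**Figure D5:**
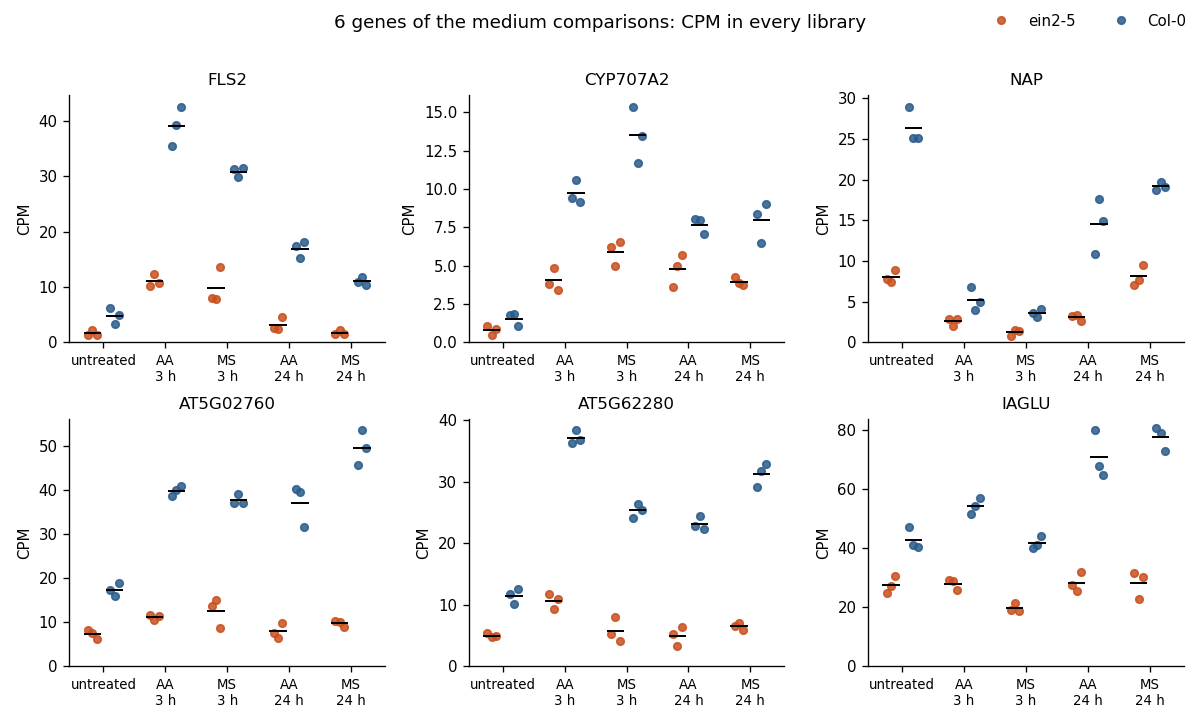
CPM of 6 members in each library (points, ein2-5 left of Col-0 in each condition; black lines, means of 3). FLS2 and CYP707A2 are higher with MS at 3 h than untreated in both genotypes and NAP is lower; in AT5G02760, AT5G62280 and IAGLU the change with MS at 24 h is larger in Col-0 than in ein2-5.

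Whether a treatment acted differently on the members in ein2-5 and in Col-0 was tested as an interaction, ein2-5 minus Col-0. It is the difference of 2 genotype differences, each of which the rule bounds at -0.5, so its direction among the members is not independent of the choice. For AA at 3 h none of the 70 was called, with 0 by DESeq2 as well and 9 at an unadjusted p under 0.05; 0.0706% of all genes were called. For AA at 24 h 2 were called (0.296% of all genes), HAK5 and AT4G33720, and each call was lost in most of its alternatives. For MS 5 were called at 3 h (1.47% of all genes) and 8 at 24 h (4.01%). At 3 h BEE3 alone held its call under every alternative tried. BEE3 fell with MS in both genotypes and by more in ein2-5 (-1.50 ± 0.13, adjusted p = 9.26e-11) than in Col-0 (-0.65 ± 0.11, adjusted p = 1.23e-05), a difference of -0.86 ± 0.17, adjusted p = 0.00499. At 24 h 4 held: AT5G02760, AT5G62280, IAGLU and AT3G54040. AT5G02760 in ein2-5 had 10.2, 10.1 and 8.91 CPM with MS at 24 h, against 8.18, 7.65 and 6.23 CPM untreated. In Col-0 it had 45.7, 53.8 and 49.6 CPM with MS at 24 h, against 17.4, 15.9 and 18.95 CPM untreated. The Col-0 change in AT5G02760 was 1.53 ± 0.14, adjusted p = 1.54e-09 and the ein2-5 change 0.44 ± 0.16 (adjusted p = 0.0657), a difference of -1.10 ± 0.21, adjusted p = 0.00152. AT5G62280, a protein of unknown function, differed by -1.06 ± 0.24, adjusted p = 0.00736, and IAGLU (AT4G15550), which conjugates auxin, by -0.81 ± 0.15, adjusted p = 0.000667. In these 3 genes the change with MS was smaller in ein2-5; in AT3G54040 it was higher in ein2-5 (0.65 ± 0.14, adjusted p = 0.00391).

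The members lay on all 5 chromosomes, with 15, 8, 10 and 10 on chromosomes 1 to 4 and 27 on chromosome 5. Chromosome 5 thus held 38.6% of the members and 23.1% of the counted nuclear genes; EIN2 is on it, at 787428 to 793404 (TAIR10.1). Within 1 Mb of EIN2, which holds 536 counted genes, there were 4 other members: AT5G02760 at 160 kb, PKS4 at 357 kb, AT5G01210 at 701 kb and AT5G05880, a glucosyltransferase-like gene, at 976 kb. An allele carried along with ein2-5 at these linked genes and an effect of EIN2 cannot be told apart here. Members that are next to each other were NIT4 and AT5G22310, 1557 bases apart, and the defensins PDF1.2A and PDF1.2C. AT1G53870 and AT1G53890 had 90.0% and 76.7% of values not whole, a mark of read pairs shared between copies, so they may be 1 signal counted in both. In all, 14 members overlap another annotated gene, FLS2, AT5G02760, IAGLU, AT3G54040, AT5G49700, AT5G01210 and BES1 among them.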

How the data were processed

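RNA from whole seedlings was sequenced in 30 libraries, 3 in each of 10 groups. The authors deposited 1 table of expected counts per gene: featureCounts 2.0.3 counted read pairs on either strand and split those with several mapping places into fractions, per the file headers. Per the submitters' processing notes, HISAT2, SAMtools, featureCounts, DESeq and DESeq2 were used, with the TAIR10 genome. Of all values 6.31% were not whole, and they were rounded for the fit; the rule used them unrounded. CPM is the deposited count times 1e6 over the column sum, in which 122 mitochondrial and 88 plastid genes are included; it is not per length, so levels of different genes were not compared. Differential expression was tested with edgeR 4.0.16 in R 4.3.3 (TMM factors, filterByExpr with a minimum count of 10, quasi-likelihood F test over all 30 libraries with 1 mean per group, Benjamini-Hochberg at 0.05 over 21256 genes); a fold change is followed by ± its standard error. The pipeline was tested on simulated data. Alternatives were RLE factors, no count filter, DESeq2 1.42.0, a fit to the compared groups alone, the replicate number as a block and leaving out each library. Sequences and positions are from RefSeq's annotation of TAIR10.1, in which 27445 of the file's genes were found by locus. The members, the gene lists and their grouping by role were chosen with earlier results of these data known. Genes named in detail are EIN2, members of the lists, the 12 with the lowest average g, the 6 with the highest Col-0 mean, up to 4 per direction and comparison with the largest called change, adjacent members and those at the threshold; other names were chosen after their values were seen. The counts cover all 70 members, but 1 member is not reported singly here.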

Additional observations from a re-analysis of the deposited data

Results flagged for a closer look

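Members whose response to a treatment differed between ein2-5 and Col-0 are given here as the log2 response in ein2-5 minus that in Col-0, from edgeR's quasi-likelihood test of the interaction with Benjamini-Hochberg adjustment over all genes. Each is a difference of 2 genotype differences that the choice of genes bounds on one side, and no explanation was tested. For MS at 3 h the difference was -0.86 ± 0.17, adjusted p = 0.00499 for BEE3, which held under every alternative. It was 0.62 ± 0.14, adjusted p = 0.0156 for AT2G36630; it was lost in 5 of 17 alternatives (adjusted p up to 0.174), among them without Col-0 MS 3 h replicate 3, Col-0 untreated replicate 1, ein2-5 MS 3 h replicate 3, ein2-5 untreated replicate 3. For ARL it was -0.76 ± 0.20, adjusted p = 0.048; it was lost in 12 of 17 alternatives (adjusted p up to 0.109), among them without Col-0 MS 3 h replicates 1, 2 or 3, Col-0 untreated replicates 1, 2 or 3, ein2-5 MS 3 h replicates 1 or 3, ein2-5 untreated replicates 2 or 3. AT5G44580, a protein of unknown function, differed by -0.51 ± 0.13, adjusted p = 0.0464; it was lost in 11 of 17 alternatives (adjusted p up to 0.127), among them without Col-0 MS 3 h replicates 2 or 3, Col-0 untreated replicates 1, 2 or 3, ein2-5 MS 3 h replicates 1 or 3, ein2-5 untreated replicates 1, 2 or 3. AT5G62280 differed by -0.95 ± 0.24, adjusted p = 0.0437; it was lost in 10 of 17 alternatives (adjusted p up to 0.138), among them without Col-0 MS 3 h replicates 2 or 3, Col-0 untreated replicates 1 or 2, ein2-5 MS 3 h replicates 1 or 3, ein2-5 untreated replicates 1 or 3. For AA at 24 h the difference was 1.38 ± 0.32, adjusted p = 0.0497 for HAK5, which had 3.76, 1.93 and 2.87 CPM with AA and 2.63, 2.15 and 3.51 CPM with MS in ein2-5, and 3.86, 5.901 and 4.35 CPM with AA and 11.1, 12.5 and 11.8 CPM with MS in Col-0; it was lost in 11 of 17 alternatives (adjusted p up to 0.193), among them without Col-0 AA 24 h replicates 1 or 3, Col-0 MS 24 h replicates 1, 2 or 3, ein2-5 AA 24 h replicates 1 or 3, ein2-5 MS 24 h replicates 1 or 2. The fitted value for AT4G33720 was 4.69 ± 1.07, adjusted p = 0.0498 for AA and -4.15 ± 1.17, adjusted p = 0.0379 for MS at 24 h, but ein2-5 had 0.296, 0.343 and 0.506 CPM with AA, 0.287, 0.0365 and 0 CPM with MS and 0.603, 0 and 0.125 CPM untreated, so the size depends on a few read pairs. For AA it was lost in 12 of 17 alternatives (adjusted p up to 0.159), among them without Col-0 AA 24 h replicates 1, 2 or 3, Col-0 MS 24 h replicates 1, 2 or 3, ein2-5 AA 24 h replicates 1, 2 or 3, ein2-5 MS 24 h replicates 2 or 3, and for MS it was lost in 9 of 17 alternatives (adjusted p up to 0.623), among them without Col-0 MS 24 h replicates 1 or 2, Col-0 untreated replicates 1 or 2, ein2-5 MS 24 h replicates 2 or 3, ein2-5 untreated replicate 1. For MS at 24 h the differences of -1.10 ± 0.21, adjusted p = 0.00152 for AT5G02760, -1.06 ± 0.24, adjusted p = 0.00736 for AT5G62280, -0.81 ± 0.15, adjusted p = 0.000667 for IAGLU and 0.65 ± 0.14, adjusted p = 0.00391 for AT3G54040 held under every alternative. AT5G44260 differed by 1.05 ± 0.28, adjusted p = 0.0258; it was lost in 6 of 17 alternatives (adjusted p up to 0.0899), among them without Col-0 MS 24 h replicate 1, Col-0 untreated replicates 1 or 2, ein2-5 MS 24 h replicate 1, ein2-5 untreated replicates 2 or 3. AT5G44580 differed by -0.51 ± 0.13, adjusted p = 0.0199 at this time; it was lost in 4 of 17 alternatives (adjusted p up to 0.0908), among them without Col-0 MS 24 h replicate 3, Col-0 untreated replicate 1, ein2-5 MS 24 h replicate 1, ein2-5 untreated replicate 2.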

How the results depend on the processing

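The rule took 70 genes; with 0.5 or 2 CPM added in place of 1 it took 93 and 54, with TMM-scaled CPM 79, with the fitted log2 fold change 161, with a threshold of -1 21, and without organelle genes 70. With single libraries left out it took 67 to 83, and 49 of the 70 were kept in all 30 of these. Of 206 calls of members in the tested comparisons, 129 held under every alternative, 77 were lost in at least 1 and 0 reversed. Fitted on only the libraries compared, AA against MS in ein2-5 at 3 h called 11 members, MS against untreated in ein2-5 at 24 h 9, MS by genotype at 3 h 2 and AA by genotype at 24 h 1; DESeq2 called 4 in the last. The cause was not tested. Without single libraries, AA against MS called 19 to 21 at 3 h and 16 to 20 at 24 h in ein2-5, and 15 to 17 and 23 to 29 in Col-0; MS against untreated called 22 to 29 and 9 to 13 in ein2-5, and 28 to 31 and 17 to 19 in Col-0. The interactions gave 0 to 1 (AA at 3 h, 1 without ein2-5 AA 3 h replicate 2 or MS 3 h replicate 3), 0 to 2 (AA at 24 h), 1 to 6 (MS at 3 h) and 5 to 10 (MS at 24 h); the genotype contrasts gave 54 to 58 untreated, 60 to 66 and 64 to 67 at 3 h of AA and MS, and 59 to 63 and 66 to 68 at 24 h. Replicate numbers came from the labels, which do not say that they mark a shared culture. Between groups, the mean correlation of residuals was -0.0117 for same-numbered libraries and 0.00805 for other numbers. Single same-numbered pairs ran from -0.445 to 0.603, so the mean does not describe each pair. With the replicate block, MS by genotype called 2 at 3 h and 6 at 24 h, AA by genotype 0 at 24 h, and all other counts stayed within 1.5 times. Depth limits members near 0 in ein2-5, where a fold change rests on a few read pairs.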
